A study of Homo sapiens with 8 samples.

Results

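Heat shock chaperones of the cytosol and the mitochondria were followed in the transcriptome of HT29, a human colon cancer cell line. The set was 10 named genes, HSPA8, HSPA1A, HSPA1B, DNAJB1, HSP90AA1, HSP90AB1 and HSPB1 of the cytosol and HSPA9, HSPD1 and HSPE1 of the mitochondria, taken by gene symbol. All 10 were found among the 18664 genes of the table. The shALDH1A1 group was 4 RNA-seq libraries of HT29 cells that carried a lentiviral short hairpin RNA against ALDH1A1, a cytosolic aldehyde dehydrogenase, and the CTRL group was 4 libraries of HT29 cells without the knockdown, all grown with 10% FBS. The labels call the CTRL cells shControl, WT and parental in different places, the text names more than 1 human hairpin without saying which was sequenced, and no source used here says whether the knockdown line was a clone or a pool. Nothing says that the 4 libraries of a group came from separate cultures, so the tests measure the spread between libraries, which may be technical. Wherever 4 values of a group follow each other, they are those of replicates 1, 2, 3 and 4 in this order, and "after knockdown" stands for the shALDH1A1 libraries.

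Chaperones bind proteins that are not yet folded or have lost their fold and keep them from clumping. HSP70 proteins (HSPA8, HSPA1A, HSPA1B, and HSPA9 in mitochondria) hold and release their clients by cycles of ATP hydrolysis, which J-domain proteins such as DNAJB1 start and nucleotide exchange factors end. HSP90 proteins receive partly folded kinases and steroid receptors from HSP70, the small heat shock protein HSPB1 holds unfolded proteins without ATP, and HSPD1 with its lid HSPE1 forms the folding chamber of the mitochondrial matrix. Cells make most of these proteins at all times, and the transcription factor HSF1 raises them under heat or other protein stress by binding heat shock elements, which are inverted repeats of a short unit. HSPA1A, HSPA1B and DNAJB1 are classic stress-induced members, and HSPA8, HSPA9 and HSP90AB1 are made steadily in unstressed cells.

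The sequence that these genes have in common upstream of their start sites was read from RefSeq promoter windows of the build GRCh38.p14, which run from 250 bases before to 50 bases after a start site. Of the 10 genes, 9 had in at least 1 window a pair of inverted units (GAA and TTC in either order with any 2 bases between), against 16.2% of 27305 genes. HSPE1 was the exception, with no match in its window, which begins at chr2:197500129. The HSPD1 stretch with a match, chr2:197500031-197500090, lies between the start sites of HSPD1 and HSPE1, just outside the HSPE1 window. The lack of a match at HSPE1 therefore holds for this window length and not for the whole sequence between these genes. A row of 3 alternating units, the arrangement that an HSF1 trimer binds, was found in 4 of the 10 (HSPA8, HSP90AA1, HSP90AB1 and HSPD1) and in 0.608% of all genes. The count by window was 10 of 16 windows with a pair against 13.5% of 35116 windows, and 4 of 16 with 3 units against 0.490%. The pattern reads the same on both strands, and matches that overlap were merged. A match is a description of the letters and not a measured site. Stretches of 60 bases are shown for the 4 genes with 3 units and for the stress-induced pair HSPA1A and HSPA1B, because they hold the one feature upstream of these genes that HSF1 is known to bind. Capitals mark the units with the bases between them. The remaining genes with a match, HSPB1, HSPA9 and DNAJB1, had pairs but no row of 3 and are not shown.

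HSPA8 (chr11:123062156-123062215, minus strand, 79 to 20 bases before the start site): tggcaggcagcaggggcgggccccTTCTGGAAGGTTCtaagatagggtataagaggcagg
HSP90AA1 (chr14:102087097-102087156, minus strand, 112 to 53 bases before the start site): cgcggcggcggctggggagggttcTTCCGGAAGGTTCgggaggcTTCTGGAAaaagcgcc
HSP90AB1 (chr6:44247807-44247866, plus strand, 136 to 77 bases before the start site): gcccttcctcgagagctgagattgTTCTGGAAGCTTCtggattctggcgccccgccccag
HSPD1 (chr2:197500031-197500090, minus strand, 250 to 191 bases before the start site): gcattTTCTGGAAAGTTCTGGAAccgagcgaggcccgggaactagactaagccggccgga
HSPA1A (chr6:31815411-31815470, plus strand, 132 to 73 bases before the start site): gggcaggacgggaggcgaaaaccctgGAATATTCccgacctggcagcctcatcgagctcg
HSPA1B (chr6:31827607-31827666, plus strand, 131 to 72 bases before the start site): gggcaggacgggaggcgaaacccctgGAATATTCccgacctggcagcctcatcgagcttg

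The 2 stress-induced HSP70 genes are neighbours on chromosome 6, and their stretches are almost the same. Their longest open reading frames, taken from GENCODE transcripts, were each 1926 bases long and identical at 1922 positions (99.8%), with an identical run of 1709 bases. Reads of 1 gene can therefore be counted for the other, and the values of HSPA1A and HSPA1B are uncertain one by one. HSPA8, HSPD1 and HSPE1 also have 17, 18 and 26 annotated pseudogenes, which can share reads with them.

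The libraries differed widely in depth and make-up. Total counts were 536575 to 1908803 in the shALDH1A1 group and 291260 to 4137111 in the CTRL group, with CTRL replicate 2 the shallowest. The knockdown target ALDH1A1 was at 0 to 3 counts per library after knockdown and at 83 to 1870 without it. A list of 24 everyday genes that nearly every cell uses took 0.0280 to 0.177% of all counts after knockdown, against 1.15 to 4.86% per CTRL library. Of 14 genes of colon epithelial cells, 6 to 12 were above 0 per knockdown library and 8 to 13 per control library. They took 0.00253 to 0.0199% of the counts after knockdown and 0.0199 to 0.166% in CTRL libraries. Among them KRT8 had 9, 74, 108 and 4 counts after knockdown and 787, 15, 3025 and 534 in CTRL cells. CDX2, a defining gene of the colon lineage, was at 0 in all CTRL libraries and in 3 of the 4 shALDH1A1 libraries. All 14 genes of stomach gland cells were above 0 in every CTRL library, where they took 3.28 to 38.7% of the counts, against 0.00194 to 0.0387% in shALDH1A1 libraries. Genes of fibroblasts and smooth muscle took 3.47% of CTRL replicate 1, 0.0824 to 0.213% of the remaining CTRL libraries and 0.000786 to 0.0469% of shALDH1A1 libraries. Genes of leukocytes took 0.0834 to 0.116% after knockdown and 0.0151 to 0.0559% in CTRL libraries, nearly all of the former being LYZ, the gene of lysozyme, which some gland cells also make. The other 9 leukocyte genes together lay the other way, with 1, 20, 17 and 0 counts after knockdown and 532, 7, 936 and 118 in CTRL cells. Genes of endothelial and red blood cells took 0.000226 to 0.0539% after knockdown and 0 to 0.107% in CTRL libraries. MTRNR2L genes, which lie in the nuclear genome but resemble the large ribosomal RNA of mitochondria, held 14.6, 0.233, 9.34 and 50.4% of the CTRL libraries and 0.00360 to 0.183% of the shALDH1A1 libraries, and the top 10 genes of a library took 13.7 to 57.8% and 20.2 to 26.8% of its counts. The part of these genes in the chaperone results was not tested, and fewer cells of a type cannot be told apart from less RNA per cell.

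The 10 chaperones made up a small share of every library and a far smaller one after knockdown. Their summed counts were 17, 239, 153 and 24.7 after knockdown, against 10455, 193, 7675 and 2955 in CTRL cells. These were 0.000891, 0.0172, 0.00910 and 0.00461% of each knockdown library, against 0.450, 0.0663, 0.186 and 0.177% of each CTRL library. The groups did not overlap, and the lowest share, that of shALDH1A1 replicate 1, rested on 17 counts. The everyday genes were lower in the same libraries. Per 100 counts of everyday genes, the chaperones held 3.18, 9.79, 5.15 and 4.45 counts after knockdown and 9.27, 5.76, 12.9 and 6.71 in CTRL cells. On this measure shALDH1A1 replicate 2 lay above 3 of the 4 CTRL libraries and the groups overlapped.

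**Figure D1:**
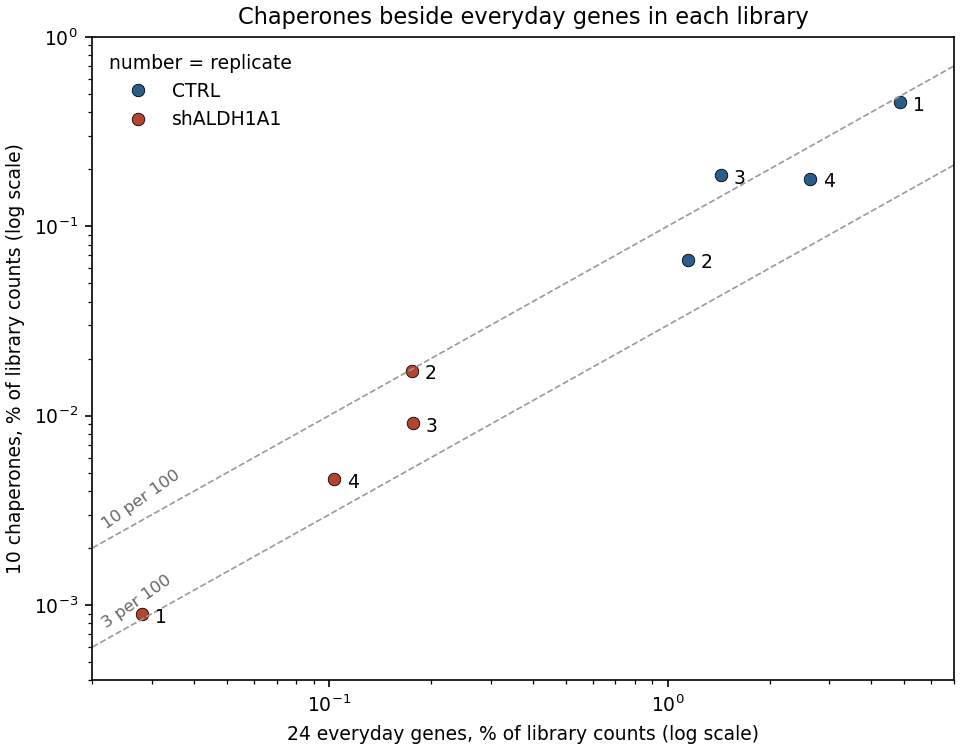
Share of the library counts held by the 10 chaperones (vertical axis, percent, log scale) against that of the 24 everyday genes (horizontal axis, percent, log scale), with 1 point per library and its replicate number. The libraries of both groups lie in one band, between about 3 and 13 chaperone counts per 100 everyday counts, and the shALDH1A1 libraries lie at its low end on both axes.

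Levels were first read as TPM, which is set per length and can be compared between genes. HSPA8, the constant HSP70 of the cytosol, stood at 4.51, 69.6, 36.0 and 12.5 TPM after knockdown, and at 394, 217, 247 and 215 TPM in CTRL cells. Its mean was 30.7 ± 29.2 TPM (SD, n = 4) after knockdown and 268 ± 84.9 TPM (SD, n = 4) in CTRL cells, and every shALDH1A1 library lay below every CTRL library (exact two-sided permutation test on log2(TPM + 1), p = 0.0286, the smallest p that 4 against 4 libraries allow). Of all tested genes, 34.9% were separated in this direction, and so were 19 of the 24 everyday genes, so separation by itself does not set a gene apart.

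The stress-induced HSP70 genes were lower in level and more scattered. HSPA1A stood at 0, 34.1, 10.5 and 3.81 TPM after knockdown and at 108, 8.87, 67.2 and 14.98 TPM in CTRL cells. HSPA1B stood at 0, 13.8, 2.91 and 0 TPM, and at 22.6, 0, 60.1 and 11.9 TPM. Both groups overlapped for each gene, CTRL replicate 2 being among the low libraries with 2 counts for the pair. The differences did not pass (exact two-sided permutation test on log2(TPM + 1), p = 0.171 for HSPA1A and 0.286 for HSPA1B).

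DNAJB1, the J-domain partner that HSF1 induces with HSP70, was separated. Its level was 2.28, 7.77, 6.33 and 0 TPM after knockdown and 64.8, 34.7, 46.5 and 35.9 TPM in CTRL cells. The shALDH1A1 values rested on 2, 5, 5 and 0 counts. The means were 4.10 ± 3.59 and 45.5 ± 13.9 TPM (SD, n = 4 each; exact two-sided permutation test, p = 0.0286).

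Both HSP90 genes were separated as well. HSP90AA1, the more inducible form, stood at 5.99, 79.7, 23.0 and 8.28 TPM after knockdown and at 341, 93.4, 221 and 96.2 TPM in CTRL cells. The gap between the groups was narrow, since shALDH1A1 replicate 2 came close to CTRL replicates 2 and 4. HSP90AB1, the constant form, stood at 0, 42.8, 21.2 and 39.1 TPM, and at 361, 248, 235 and 254 TPM. Its CTRL libraries were close together and all far above the knockdown libraries (exact two-sided permutation test, p = 0.0286 for both, n = 4 per group).

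HSPB1, the small heat shock protein also called HSP27, had the highest mean TPM of the set in both groups. It stood at 7.81, 112, 183 and 14.9 TPM after knockdown and at 2928, 374, 261 and 161 TPM in CTRL cells. The shALDH1A1 library with the highest value lay above CTRL replicate 4, and the difference did not pass (exact two-sided permutation test, p = 0.0571). CTRL replicate 1 stood far above the other 3 CTRL libraries. It is also the library with the most counts of fibroblast and smooth muscle genes, the highest share of everyday genes (4.86%) and the highest share of the 10 chaperones (0.450%). HSPB6 and CRYAB, small heat shock proteins typical of muscle, had 1354 and 808 counts there. Without this library the fitted log2 fold change of HSPB1 moved from -2.80 to -1.18 (adjusted p = 0.434, edgeR). Whether any of these features bears on the HSPB1 level was not tested.

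**Figure D2:**
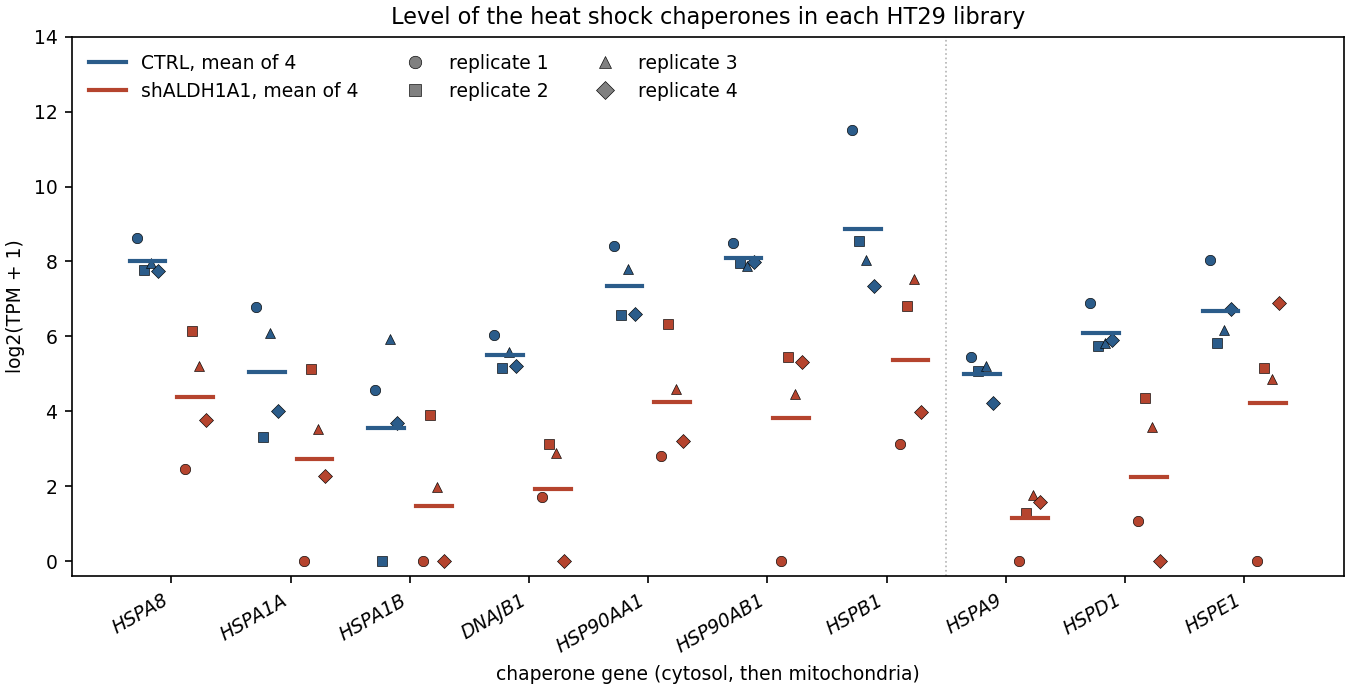
Level of each chaperone gene as log2(TPM + 1) (vertical axis) in the 4 CTRL and 4 shALDH1A1 libraries, with 1 marker shape per replicate number, bars at the mean of 4, and a dotted line between cytosolic and mitochondrial genes. HSPA8, DNAJB1, HSP90AA1, HSP90AB1, HSPA9 and HSPD1 show no overlap between the groups, while HSPA1A, HSPA1B, HSPB1 and HSPE1 overlap.

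In the mitochondria, HSPA9, the HSP70 that pulls proteins into the matrix and helps build iron-sulfur clusters, was the lowest of the 10 after knockdown. It stood at 0, 1.45, 2.37 and 1.98 TPM after knockdown and at 43.0, 32.5, 36.3 and 17.7 TPM in CTRL cells, from 7 counts over the knockdown group and 964 over the CTRL group. The groups lay far apart (means 1.45 ± 1.04 and 32.4 ± 10.7 TPM, SD, n = 4 each; exact two-sided permutation test, p = 0.0286). HSPA9 was also the only member whose groups did not overlap when read against the everyday genes of its own library, with 0 to 0.180 counts per 100 everyday counts after knockdown and 0.282 to 0.777 in CTRL cells. Of all tested genes 8.92% were separated in this direction on that measure. The highest knockdown value was 1 count in shALDH1A1 replicate 4, and 1 count more would have put it above the lowest CTRL value.

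The chamber HSPD1 (HSP60) and its lid HSPE1 (HSP10), have genes that lie head to head on chromosome 2. HSPD1 stood at 1.11, 19.4, 11.0 and 0 TPM after knockdown and at 118, 52.5, 55.5 and 58.9 TPM in CTRL cells, and was separated (exact two-sided permutation test, p = 0.0286). HSPE1 stood at 0, 34.6, 28.2 and 117 TPM, and at 263, 55.1, 70.6 and 105 TPM. The highest knockdown library lay above 3 of the 4 CTRL libraries, and the difference did not pass (exact two-sided permutation test, p = 0.143). That library was shALDH1A1 replicate 4, where HSPE1 had 4.74 counts and HSPD1 had 0. Whether the changes of the chamber and the lid gene differ was not tested.

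HSPB1 led the order of the levels in both groups. In CTRL cells the mean TPM fell from HSPB1 (931 ± 1334) through HSP90AB1 (275 ± 58.3), HSPA8, HSP90AA1 (188 ± 118), HSPE1 (123 ± 95.3), HSPD1 (71.1 ± 31.1), HSPA1A (49.9 ± 47.0), DNAJB1 and HSPA9 to HSPA1B (23.6 ± 26.0; SD, n = 4). In shALDH1A1 cells the order was HSPB1 (79.3 ± 83.6), HSPE1 (44.9 ± 50.3), HSPA8, HSP90AA1 (29.3 ± 34.5), HSP90AB1 (25.8 ± 19.6), HSPA1A (12.1 ± 15.3), HSPD1 (7.88 ± 9.15), HSPA1B (4.19 ± 6.58), DNAJB1 and HSPA9. Neighbours in this order mostly did not differ beyond their spread. Only HSPA8 over HSP90AA1, HSPE1 over HSPD1, and DNAJB1 over HSPA9 held in 4 of 4 libraries, each in CTRL cells.

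The question of the design, which genes change when ALDH1A1 is lowered, was asked with edgeR's quasi-likelihood test over 7971 genes with TMM factors. HSPA9, DNAJB1 and HSP90AB1 were called lower in shALDH1A1 cells at an adjusted p under 0.05, the other 7 did not pass, and 0 were called higher. The share of all tested genes called lower was 33.0%, so 3 of 10 is near the background, and 2.60% of all tested genes were called higher. At an unadjusted p under 0.05, 7 of the 10 and 41.6% of all tested genes were lower. At the thresholds of the study's methods (adjusted p under 0.001 and a log2 fold change under -1), 0 of 10 were called and 4.96% of all tested genes.

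For HSPA9 the log2 fold change was -4.45 (standard error 1.17; edgeR's quasi-likelihood test, adjusted p = 0.00501). DNAJB1 had -3.21 (standard error 1.07, adjusted p = 0.0221) and HSP90AB1 -3.53 (standard error 1.39, adjusted p = 0.0470). HSPA9 and DNAJB1 had at most 4 and 5 counts in a knockdown library and passed the filter on low counts through their CTRL libraries. The direction of these calls therefore says little by itself. The HSP70 of the cytosol did not pass, with log2 fold changes of -2.84 for HSPA8 (adjusted p = 0.0813), -2.32 for HSPA1B (0.107) and -1.69 for HSPA1A (0.218). With HSPA1A and HSPA1B summed into 1 gene, the log2 fold change of the pair was -1.82 (adjusted p = 0.210) and the calls were the same 3 of 9. HSPD1 and HSPE1 had log2 fold changes of -2.80 (adjusted p = 0.0580) and -2.10 (0.0870), and HSP90AA1 had -2.35 (0.135). HSPB1, at -2.80, had an adjusted p of 0.101. All 10 point estimates were negative on this scale and the standard errors were 0.976 to 1.39.

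A change of the library scale moved all genes. Over the tested genes the median log2 fold change was -1.45 with TMM factors, -2.25 with RLE factors, -2.61 with library totals and 1.72 when the everyday genes set the library size. The median of the 10 chaperones was -2.80 on the first of these scales and -0.63 on the last, beside -2.26 and 0.09 for the tested everyday genes. The value of 0.09 follows largely from the scale, which these same genes set. On the everyday scale single everyday genes ran from -3.48 to 4.14, and 1 of the 22 tested was called lower and 2 higher. That scale rested on 535 and 556 everyday counts in shALDH1A1 replicates 1 and 4. Relative to the median of the tested genes, HSPA9 lay lowest, at -3.00 with TMM factors and -3.84 on the everyday scale, and HSPA1A lay at -0.24 and -1.44. With TMM factors 11.2% of the tested genes had a lower fold change than HSPA9 and 46.7% a lower one than HSPA1A. When the everyday genes set the library size, 0 of the 10 chaperones were called lower and 0 higher, at 5.60% of all tested genes called lower and 39.1% higher. On that scale HSPA9 was at -2.12 (adjusted p = 0.128), HSPE1 turned to 1.15 (adjusted p = 0.374) and HSPA1A to 0.28 (adjusted p = 0.853), none of them past the threshold.

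**Figure D3:**
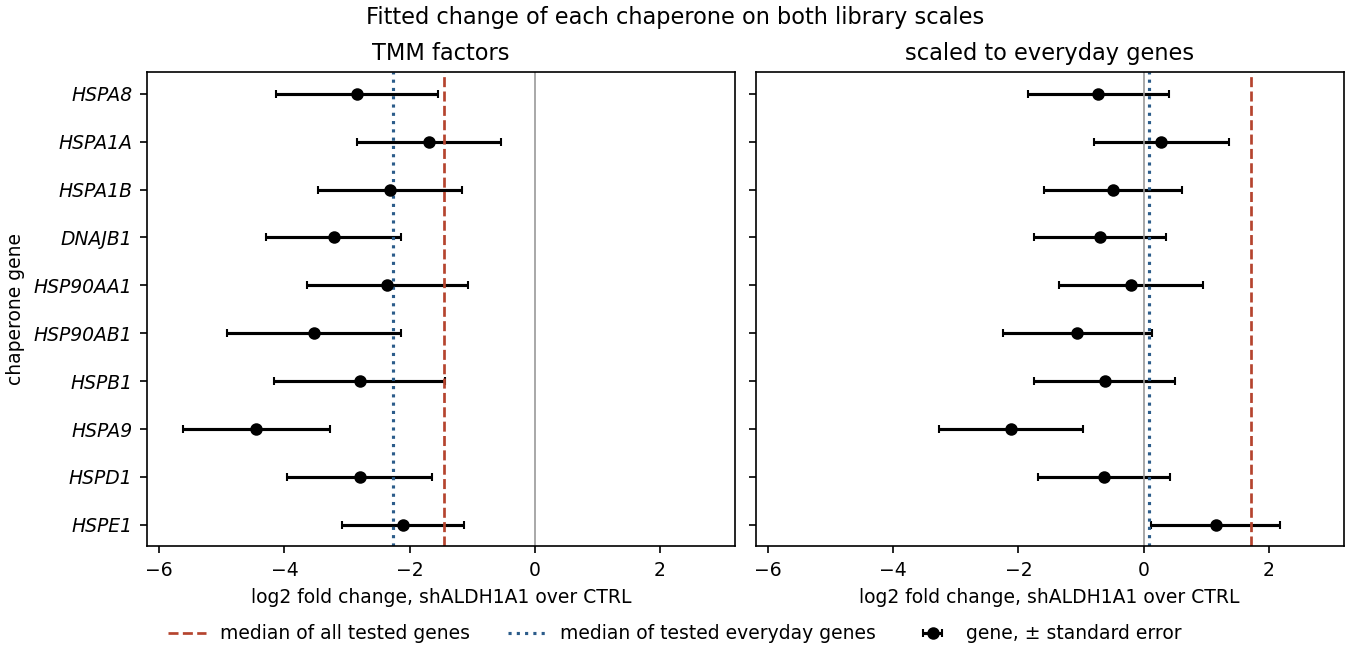
Fitted log2 fold change of each chaperone, shALDH1A1 over CTRL (horizontal axis), with its standard error, at TMM factors (left) and with library size set by everyday genes (right). Dashed and dotted lines mark the median of all tested genes (-1.45 and 1.72) and of the tested everyday genes (-2.26 and 0.09). The dotted line on the right lies near 0 largely because these genes set that scale. HSPA9 lies farthest to the left on both scales.

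The number of chaperones called depended on the setting and ran from 0 to 10 of 10. All 10 were called lower with library totals, where 51.4% of all tested genes were, and 9 of 10 with DESeq2 at a background of 55.8%. Leaving out CTRL replicate 2, the shallowest library, gave 10 of 10 at 60.4%, and leaving out shALDH1A1 replicate 2, which held the most chaperone counts of its group, gave 10 of 10 at 51.1%. Without CTRL replicate 4 it was also 10 of 10, at 44.0%. In the other direction, 1 of 10 was called without shALDH1A1 replicate 1, at 22.5% of all tested genes, and 1 of 10 without shALDH1A1 replicate 4, at 23.9%. That gene was HSPA9 both times. HSPA9 passed in 16 of 17 alternative settings, all but the everyday scale, DNAJB1 in 14 and HSP90AB1 in 11. HSP90AB1 missed the threshold without CTRL replicate 1 (adjusted p = 0.0536), CTRL replicate 3 (0.0548) and shALDH1A1 replicates 1, 3 and 4 (0.0915 to 0.126), and DNAJB1 without shALDH1A1 replicates 1 and 4 (0.0747 and 0.0915).

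**Figure D4:**
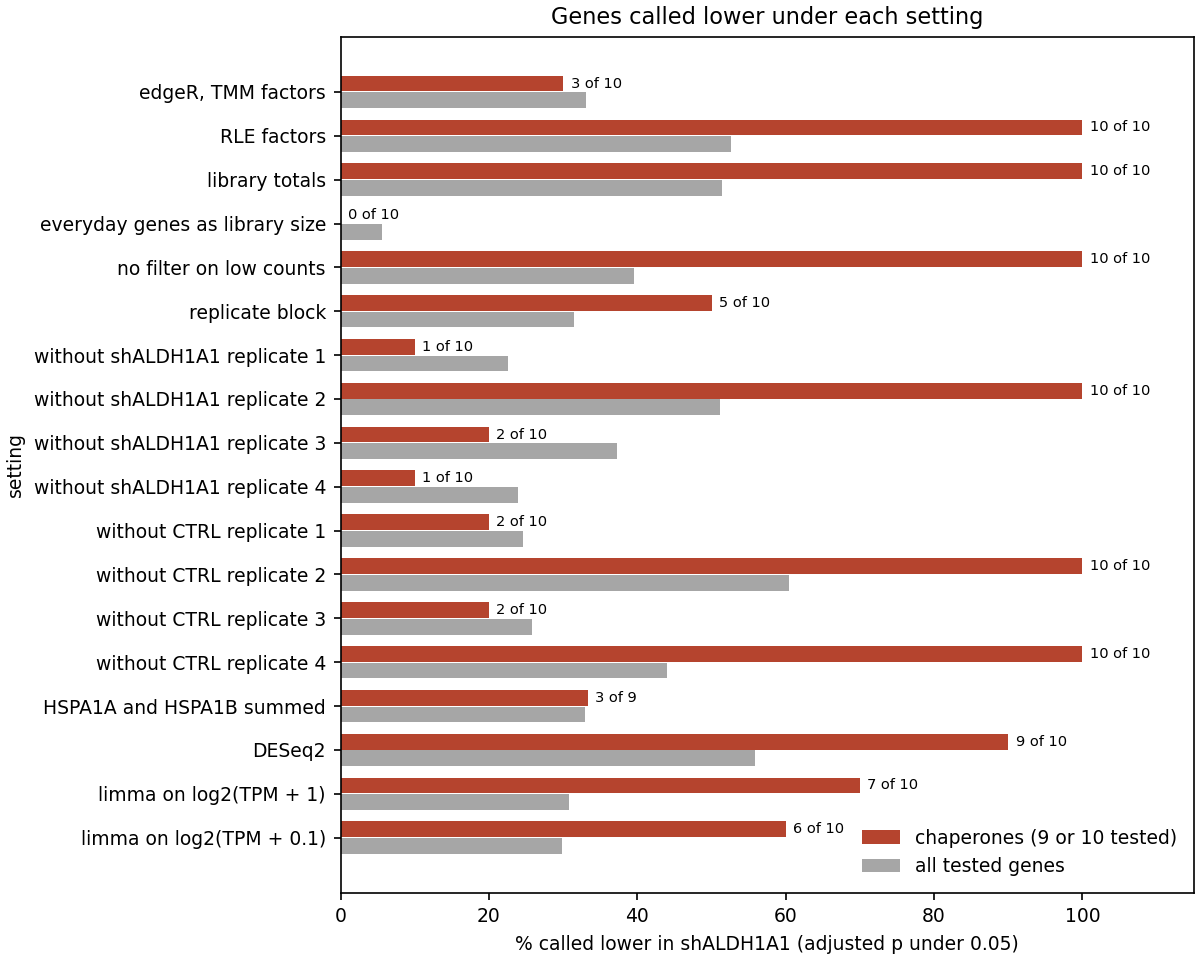
Percent of the chaperones and of all tested genes called lower in shALDH1A1 cells at an adjusted p under 0.05 (horizontal axis) under each setting (vertical axis). The chaperones run from 0 of 10 to 10 of 10 while all tested genes run from 5.60% to 60.4%.

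Ratios within a library do not depend on its scale, and the groups overlapped for all 3 ratios read. The log2 ratio of HSP90AA1 to HSP90AB1 counts (0.5 added to each) was 4.09, 1.25, 0.48 and -1.72 after knockdown and 0.28, -1.04, 0.28 and -1.03 in CTRL cells. The first of these rested on 8 and 0 counts. HSPA1A plus HSPA1B over HSPA8, the inducible over the constant HSP70, was at -3.17, -0.42, -1.24 and -1.22 in shALDH1A1 cells and at -1.48, -4.22, -0.82 and -2.87 in CTRL cells. HSPD1 over HSPE1 was at 1.58, 1.58, 1.08 and -3.39 in shALDH1A1 cells and at 1.47, 2.20, 2.32 and 1.79 in CTRL cells. Apart from shALDH1A1 replicate 4, with 0 counts of HSPD1, the chamber gene had more counts than the lid gene in every library. Counts are not set per length. In TPM the lid gene HSPE1 lay above HSPD1 in all 4 CTRL libraries and in shALDH1A1 replicates 2, 3 and 4. In shALDH1A1 replicate 1 HSPD1 stood at 1.11 TPM and HSPE1 at 0. HSPB1 held 63.1% of the members' summed TPM in CTRL replicate 1 and 16.6 to 33.5% in the 3 remaining ones, and in shALDH1A1 replicate 4 the largest part, 59.2%, was HSPE1.

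The table gives values per transcript, and of the genes with several transcripts HSPA8 was split by library. All HSPA8 counts were on the RefSeq transcript NM_006597.6 in the 4 CTRL libraries (1617, 46, 1530 and 733) and in shALDH1A1 replicate 2 (47). In shALDH1A1 replicates 1, 3 and 4 all of them (4, 29 and 3) were on the predicted transcript XM_011542798.1, and NM_006597.6 was listed at 0. For DNAJB1, the predicted XM_011527956.3 held all counts in shALDH1A1 replicates 2 and 3 (5 each) and in CTRL replicate 2 (7), and NM_006145.3 held most of them in CTRL replicates 1, 3 and 4 (222, 246 and 121). HSP90AB1 was on NM_007355.4 nearly throughout, with a second transcript, NM_001271971.1, at 14.9 of 60 counts in CTRL replicate 2 and 163 of 1670 in CTRL replicate 3. A leading transcript other than that of the CTRL group was common: among genes with several transcripts and at least 20 counts in the library it was found in 53.3 to 58.5% of genes in shALDH1A1 libraries and in 36.7 to 52.3% in CTRL libraries. HSPA8 in shALDH1A1 replicate 3 is therefore 1 of many such genes. The gene-level TPM was little touched, since 1 TPM corresponded to nearly as many counts for both HSPA8 transcripts, 0.677 to 0.681 for NM_006597.6 and 0.662 to 0.664 for XM_011542798.1 relative to HSP90AA1.

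**Figure D5:**
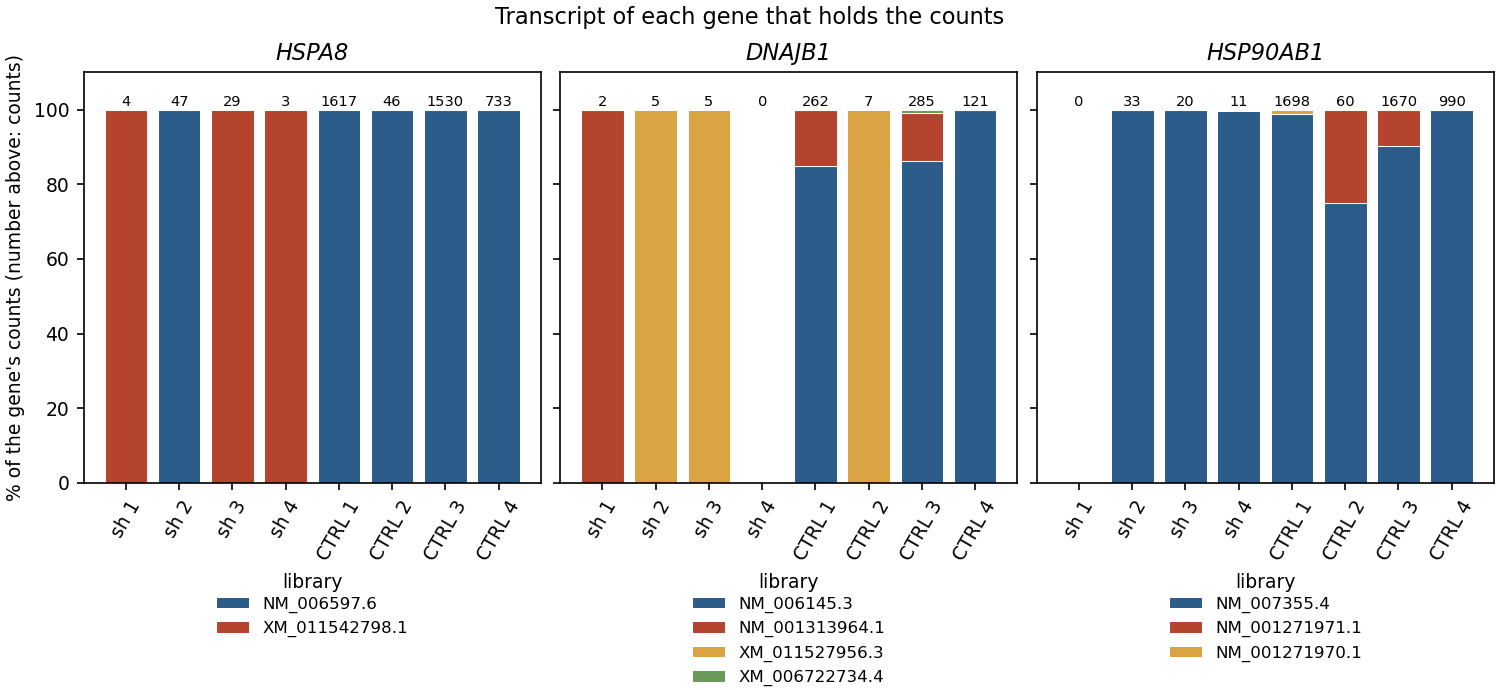
Percent of the counts of HSPA8, DNAJB1 and HSP90AB1 (vertical axis) on each RefSeq transcript in the 8 libraries (horizontal axis, sh for shALDH1A1), with the gene's counts above each bar and no bar at 0 counts. HSPA8 is on XM_011542798.1 in shALDH1A1 replicates 1, 3 and 4 and on NM_006597.6 in the other 5 libraries.

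The genes that regulate and help these chaperones were read in 9 lists with 89 genes in the table, of which 64 were tested. With TMM factors 29 fell, 2 rose and 33 did not pass, with a median log2 fold change of -2.57, and on the everyday scale 9 fell and 12 rose with a median of 0.05. Over all tested genes 33.0% fell and 2.60% rose with TMM factors, and 5.60% fell and 39.1% rose on the everyday scale, and the counts of each list are to be read against these shares. The counts of HSF1, the regulator itself, were 4, 5, 7 and 0 after knockdown and 141, 7, 232 and 43 in CTRL cells. HSF1 was at -2.10 on the log2 scale (standard error 0.980, adjusted p = 0.0878) and turned to 0.44 on the everyday scale (adjusted p = 0.763). HSBP1, which binds HSF1 and restrains it, was at -0.65 (adjusted p = 0.576) and turned to 2.53 on the everyday scale (adjusted p = 0.0769). HSF2 and HSF4 had too few counts for the test. On the everyday scale the list medians were 1.48 for heat shock factors, 4.86 for other HSP70 and HSP110 proteins, -0.57 for J-domain proteins, 0.11 for nucleotide exchange factors, -0.08 for HSP90 co-chaperones, -1.80 for small heat shock proteins, -0.05 for the chaperonin, 0.48 for prefoldin and 1.12 for other mitochondrial chaperones and proteases. The calls given next are therefore those at TMM factors unless another scale is named.

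Among 13 tested J-domain co-chaperones 7 fell and 6 did not pass, a list median of -3.85, and on the everyday scale 5 fell and 0 rose. DNAJA4 and DNAJC5, a J-domain protein of secretory vesicles, were at 0 counts in all 4 shALDH1A1 libraries. Summed over the CTRL libraries they had 168 and 425 counts. If the whole knockdown group is given 3 counts as a floor, DNAJA4 was at least 12.8-fold lower and DNAJC5 at least 32.4-fold lower with TMM factors. These floors take the 4 libraries of a group as one and were not computed on another scale. They would be lower on the everyday scale, where knockdown libraries had 535 to 2972 everyday counts and CTRL libraries 3353 to 112791. A gene at 0 in every knockdown library enters the test through its CTRL counts alone. It can only be called lower or not pass, so the direction of its call says nothing by itself. The same holds for HSPBP1, HSPB11 and LONP1. Genes with a few counts after knockdown, such as GRPEL1, VBP1, SPG7 and CDC37, also passed the filter on low counts through their CTRL libraries. The direction of their calls likewise says little by itself. Of 9 nucleotide exchange factors and HSP70 regulators 6 fell, among them BAG1 and BAG6, and 3 did not pass, while on the everyday scale 1 fell and 3 rose. HSPBP1, which releases ADP from HSP70, had 0 counts after knockdown and 125 in CTRL cells and was at least 9.53-fold lower with TMM factors. GRPEL1, the exchange factor of HSPA9 in mitochondria, had 2 counts in shALDH1A1 cells, all in replicate 3, and 203 in CTRL cells. The ratio was 23.2 with TMM factors (95% exact interval 6.35 to 193, counting error only). On the everyday scale GRPEL1 did not pass (log2 fold change -1.59, adjusted p = 0.243, edgeR).

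Of 12 tested HSP90 co-chaperones 6 fell, 1 rose and 5 did not pass, and on the everyday scale 0 fell and 2 rose. CDC37, which brings kinases to HSP90, had 0, 4, 3 and 0 counts after knockdown and 244, 6, 497 and 74 in CTRL cells (log2 fold change -3.96, standard error 1.17, adjusted p = 0.0108). FKBP4, an immunophilin of the steroid receptor complex, was at -3.78 on the log2 scale (adjusted p = 0.0143, and 0.0578 without shALDH1A1 replicate 4). PPID, another immunophilin of that complex, was the one that rose, from 59, 10, 62 and 39 counts in CTRL cells to 202, 67, 94 and 40 after knockdown (log2 fold change 2.90, standard error 1.11, adjusted p = 0.0417), and was chosen after its values were seen as the sole call in that direction. It did not pass without CTRL replicate 1 (adjusted p = 0.123), CTRL replicate 3 (0.123) or shALDH1A1 replicates 1 and 3 (0.0535 and 0.0636). Nor did it pass with library totals, where 0 genes of the 9 lists were called higher. Its call held in 11 of 17 alternative settings, and the highest adjusted p was 0.144. All 4 tested genes of the small heat shock protein list fell, HSPB6, HSPB8, HSPB11 and CRYAB, beside 33.0% of all tested genes. Only 1 of them, HSPB11, also fell on the everyday scale. HSPB11 was listed by its symbol, and whether it acts as a chaperone was not examined. HSPB11 had 0 counts after knockdown and 112 in CTRL cells and was at least 8.54-fold lower with TMM factors. CRYAB, at -4.24 (adjusted p = 0.0192), did not pass without CTRL replicate 1 (adjusted p = 0.0899), the library with the most muscle gene counts. Nor did CRYAB pass without shALDH1A1 replicate 1 or 4 (0.0803 and 0.0569). HSPB6 had 1354 and HSPB8 296 of their CTRL counts in that same CTRL library, and neither passed without it (adjusted p = 0.197 and 0.157), nor without shALDH1A1 replicate 1 (0.105 and 0.122) or 4 (0.0711 and 0.111). The part of muscle gene content in these calls was not tested.

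The cytosolic chaperonin, a ring of 8 kinds of subunit that folds actin and tubulin, had 3 subunits that fell (CCT2, CCT7 and CCT8) and 5 that did not pass, and 0 were called on the everyday scale. CCT7 and CCT8 had log2 fold changes of -3.44 (adjusted p = 0.0274) and -3.34 (adjusted p = 0.0278). Both calls were lost without shALDH1A1 replicate 1 (adjusted p = 0.0882 and 0.0838) or 4 (0.0915 and 0.0917), and that of CCT8 also without shALDH1A1 replicate 3 (0.0665). Of 4 tested subunits of prefoldin, which hands actin and tubulin to that ring, VBP1 fell, with 1 count after knockdown and 169 in CTRL cells. The ratio was 38.7 with TMM factors (95% exact interval 6.85 to 1536). On the everyday scale VBP1 did not pass (log2 fold change -2.20, adjusted p = 0.186, edgeR). PFDN5 did not pass, at -2.92 (adjusted p = 0.0789). Of 7 other mitochondrial chaperones and quality control proteases LONP1 and SPG7 fell and 5 did not pass, and on the everyday scale 2 fell and 3 rose. LONP1, the main protease of the matrix, had 0 counts after knockdown and 355 in CTRL cells and was at least 27.1-fold lower with TMM factors. SPG7 of the inner membrane had 1 count and 446, a ratio of 102 (95% exact interval 18.2 to 4039).

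A few genes of the same families were high in shALDH1A1 cells. HSPA12A, a distant HSP70 relative, was the only one that rose with TMM factors of 5 tested genes of its list, with 19, 78, 55 and 16 counts after knockdown and 18, 3, 31 and 2 in CTRL cells (log2 fold change 4.07, standard error 1.16, adjusted p = 0.00841). On the everyday scale 4 of these 5 rose, and with library totals HSPA12A did not pass (log2 fold change 2.32, adjusted p = 0.0529). HSPA4L, an HSP110 protein, had 1644, 1115, 1441 and 355 counts against 32, 199, 38 and 4, and did not pass (log2 fold change 3.36, adjusted p = 0.129). Without CTRL replicate 2, in which HSPA4L took 0.0682% of the counts against 0.000219 to 0.00138% in the remaining CTRL libraries, its adjusted p was 1.45e-06. Chosen after its values were seen, DNAJC21, a J-domain protein of ribosome assembly, held 45785, 22205, 40373 and 8778 counts after knockdown, or 2.40, 1.596, 2.40 and 1.64% of each library, and 519, 3085, 286 and 284 in CTRL cells. Its CTRL replicate 2 was again apart, at 1.06% against 0.00692 to 0.0224%, and its log2 fold change, 4.06 with a standard error of 2.71 (adjusted p = 0.210), passed without that library (adjusted p = 2.78e-06). CLPB, a mitochondrial disaggregase also chosen after its values were seen, had 670, 627, 693 and 213 counts against 52, 71, 67 and 12 (log2 fold change 3.73, adjusted p = 0.0649, and 3.6e-06 without CTRL replicate 2).

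The genes whose levels ran most like the mean of the 10 chaperones over the 8 libraries were RAB5C (Pearson r = 0.992), GSTP1 (0.987), B2M (0.987), TPI1 (0.987) and SAT1 (0.982), as a description over libraries that share depth and group. RAB5C, a small GTPase of early endosomes, stood at 1.57, 23.4, 19.1 and 5.85 TPM after knockdown and at 143, 56.4, 112 and 87.0 TPM in CTRL cells. B2M is also one of the everyday genes. Of 5670 genes that averaged 10 TPM or more, 15.5% had an r over 0.9, so a high r is common in these libraries.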

How the data were processed

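RNA-seq of 4 shALDH1A1 and 4 CTRL HT29 libraries was taken from the deposited table of 84798 transcripts. The authors' estimated counts (64.7% of non-zero values not whole at a tolerance of 0.001) and the authors' TPM values were deposited per transcript and summed per gene. CASAVA, FASTQC, HISAT to hg19 and RSEM are named in the methods, and Bowtie2, BWA and GRCh38.p13 in the submitters' processing notes. Which was used for the table is not given in the sources used here.

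Counts were rounded and tested with edgeR 4.0.16 in R 4.3.3 (filterByExpr at 10 counts per library and 15 in total; TMM; two-sided quasi-likelihood F test; Benjamini-Hochberg over 7971 genes; threshold 0.05). Standard errors are the size of the log2 fold change over the root of F. The common dispersion was 0.853. Alternatives were RLE factors, library totals, 24 everyday genes as library size, no filter, DESeq2 1.42.0, limma 3.58.1 on log2(TPM + 1) and log2(TPM + 0.1) for genes averaging 1 TPM or more, a replicate block, each library left out, and HSPA1A and HSPA1B summed. TPM was tested by exact permutation of log2(TPM + 1). Depth was 291260 to 4137111 counts per library. Since PCR reads carry no molecular identifiers, intervals and floors include counting error alone, and they rest on TMM factors.

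The 10 genes and all lists were chosen with earlier results of these data known. Named besides them were HSF1, ALDH1A1, up to 2 tested genes per list with the smallest p, and the 5 genes most like the mean of the 10. No 2 libraries of the same group agreed within sampling noise. Promoter sequences are from RefSeq (GRCh38.p14, all 10 genes matched), pseudogenes and open reading frames from GENCODE on GRCh37.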

Additional observations from a re-analysis of the deposited data

Results flagged for a closer look

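In groups of 4 libraries, a value was marked when its gap to the nearest other library, over the group's range, passed Dixon's critical value at 95%. Of 66 groups checked 8 were marked. Chance marks about 1 in 20 of groups with spread values, a rate that does not hold for 4 of the 8, in which 3 libraries were at 0 and any count in the fourth is marked. HSPD1 in CTRL replicate 1 was high, at 6.89 on the log2(TPM + 1) scale against 5.74 to 5.90 in the other CTRL libraries. That replicate also had the highest share of fibroblast and smooth muscle genes and of everyday genes. Per 100 everyday counts its HSPD1 stood at 0.425, against 0.328, 0.573 and 0.452 in CTRL replicates 2, 3 and 4. HSF1 in CTRL replicate 4 was low, at 3.87 against 5.34 to 5.50. HSPA4L in CTRL replicate 2 was high, at 7.55 against 0.28 to 1.33. In shALDH1A1 replicate 3, GRPEL1 was at 1.599, CRYAB at 5.19 and SPG7 at 0.90, each against 0 in the other 3 knockdown libraries. VBP1 was at 1.38 in shALDH1A1 replicate 1 and at 0 in the others, from 1 count. The log2 ratio of HSPD1 over HSPE1 in shALDH1A1 replicate 4 was -3.39 against 1.08 to 1.58, with 0 counts of HSPD1. The causes of these values were not tested.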

How the results depend on the processing

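Calls of the 10 chaperones were lower or absent in every setting, and 0 were called higher in any. From 3 lower with TMM factors they went to 10 with RLE factors, 10 with library totals, 10 with no filter, 9 with DESeq2, 7 and 6 with limma on log2(TPM + 1) and log2(TPM + 0.1), 0 on the everyday scale and 5 with a replicate block, and ran from 1 to 10 when 1 library was left out. All tested genes called lower went from 2633 to 4192, 4095, 6848, 4449, 4301, 4175, 446 and 2511 in the same order (2024 to 5996 with 1 library left out). Those called higher went from 207 to 903, 60, 1213, 1326, 1277, 1155, 3119 and 1030 (52 to 1715). The genes tested were 7971, but 17310 with no filter, 13997 with limma and 8221 to 10410 with 1 library left out. As shares of these, calls lower went from 33.0% to 52.6, 51.4, 39.6, 55.8, 30.7, 29.8, 5.60 and 31.5% (22.5 to 60.4%). Of the 89 genes of the 9 lists 64 were tested, but 88 with no filter, 84 with limma and 64 to 79 with 1 library left out. Among those tested, calls went from 29 lower to 47, 48, 61, 51, 49, 45, 9 and 34 (18 to 59), and from 2 higher to 5, 0, 5, 6, 6, 6, 12 and 3 (1 to 6).

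Reversed on the everyday scale were HSPA1A (0.28), HSPE1 (1.15), HSF1 (0.44) and HSBP1 (2.53), none past the threshold. Of 160 fold changes of single chaperones in other settings, 38 kept a call, 53 stayed without one in the same direction, 10 lost it, 57 gained it and 2 reversed. The number of chaperones with separated groups was 6 with TPM and 7 with CPM (6 to 7 on TPM with 1 library left out). With TPM 34.9% of all tested genes and 19 of the 24 everyday genes were separated in this direction. The shares of all genes with CPM or with a library left out were not computed. The replicate numbers did not pair the libraries, since same-numbered libraries deviated with r = -0.349, -0.0735, -0.172 and 0.141, so the block is no better estimate. Depth limits these results: in the knockdown libraries single chaperones had 0 to 79 counts, and a gene at 0 there is not shown to be absent. The cause of the differences between settings was not tested.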
